A study of Mus musculus with 2 samples.

Results

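The heavy chain locus junctions are the entries of a splice junction list that lie on mouse chromosome 12 between 114.4 and 117.3 Mb of the mm9 assembly and carry 2 or more reads, summed over both replicates. A junction is a stretch of genome that a sequencing read skips, and is given here by the first and last skipped base. There were 3634 such junctions, among 428708 in the whole list and 249189 in the list at 2 or more reads. The members were chosen by their position and this summed read number, so read numbers are described and not tested. Just inside the limit 1215 junctions of the locus had 2 reads, and just outside it 3389 had 1 read.

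The RNA was taken from spleens of C57BL/6J mice, an inbred laboratory strain, at 8 weeks of age, with littermates of both sexes. Polyadenylated RNA longer than 200 nucleotides, freed of ribosomal RNA, was read with its strand in paired reads of 76 nucleotides, in 2 biological replicates. The samples form 1 untreated group, so no conditions are compared, and values are given for replicate 1 and replicate 2 side by side. Both samples carry the same donor entry in the labels, so the spread between replicates may be biological or technical and cannot be told apart. The list gives 2 read numbers a junction, named R1 and R2, which are taken here as replicates 1 and 2. The list summed to 21824301 junction reads in replicate 1 and 25426440 in replicate 2, and the gene tables held 49686344 and 51393345 expected counts. The spleen transcription factors Tlx1 (46.0 and 33.6 TPM, a unit of level scaled by transcript length and by library) and Nkx2-5 (29.6 and 17.3 TPM) were present. The 4 B cell markers read between 26.0 and 1130 TPM in replicate 1 and between 34.6 and 863 TPM in replicate 2, the 5 plasma cell markers between 2.44 and 388 TPM and between 1.79 and 345 TPM, and the 3 T cell markers between 11.6 and 48.4 TPM and between 12.8 and 50.4 TPM. In whole tissue, fewer cells of a type and less RNA per cell cannot be told apart.

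The heavy chain gene of a B cell is assembled from V, D and J segments by cutting out the DNA between them, and the transcript then splices the J segment to the CH1 exon, the start of a constant gene. The constant gene sets the antibody class: Ighm for IgM, Ighd for IgD, Ighg3, Ighg1, Ighg2b and Ighg2c for IgG, Ighe for IgE and Igha for IgA. Class switching is a further loss of DNA, between repeat-rich switch regions, that brings another constant gene behind the same V, D and J. Each constant gene can end in a secreted form or be spliced on to membrane exons, which anchor the antibody as a B cell receptor. Seen against an unrearranged genome, a junction of this locus can therefore be an intron, or a stretch of DNA that the cell had already lost. It can also come from the placement of reads among related genes or repeats, which was not tested directly.

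The sequences at these joints are shown because the largest junction groups end at them. They come from the GENCODE M21 transcripts, of the GRCm38 assembly, and are written 5′ to 3′ on the minus strand of chromosome 12, on which the heavy chain is transcribed. The 4 J segments end in the splice donor that all classes use.
Ighj1: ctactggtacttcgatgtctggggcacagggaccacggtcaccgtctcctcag
Ighj2: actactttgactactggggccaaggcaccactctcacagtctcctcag
Ighj3: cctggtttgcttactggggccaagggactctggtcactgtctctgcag
Ighj4: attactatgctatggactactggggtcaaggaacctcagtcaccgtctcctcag
The join of J2 to the CH1 exon of Ighm is the strongest of the J joints, with the CH1 start in capitals.
Ighj2 to Ighm: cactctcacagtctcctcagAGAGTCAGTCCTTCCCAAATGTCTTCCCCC
The secreted and membrane forms part ways at the end of CH4 in Ighm and at the end of CH3 in Ighd. Capitals mark the bases after the parting point. In the secreted form of Ighm they are unspliced, and in the other 3 sequences they are the next exon.
Ighm membrane: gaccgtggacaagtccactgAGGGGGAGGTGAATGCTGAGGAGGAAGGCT
Ighm secreted: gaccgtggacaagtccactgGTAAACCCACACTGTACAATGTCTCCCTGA
Ighd membrane: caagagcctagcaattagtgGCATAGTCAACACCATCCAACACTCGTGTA
Ighd secreted: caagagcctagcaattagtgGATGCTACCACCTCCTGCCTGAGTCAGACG

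By strand, 3608 of the 3634 junctions lay on the minus strand and 26 on the plus strand. The constant region, from 114494609 to 114660941, held 182 short minus-strand junctions with 227391 reads and 3 plus-strand junctions with 8 reads. Long junctions, of 10000 bases or more, numbered 1816 on the minus strand with 46102 reads and 7 on the plus strand with 19 reads. Other short junctions numbered 1610 on the minus strand with 135793 reads and 16 on the plus strand with 191 reads. The constant region thus held 55.5% of the reads of the locus in 5.01% of its junctions, and the long minus-strand junctions 11.3% of the reads in 50.0% of the junctions. The 10 strongest junctions carried 68.4% of the reads, and the median junction had 4 reads. Both replicates held reads at 1931 junctions, while 780 were found only in replicate 1 and 923 only in replicate 2.

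**Figure D1:**
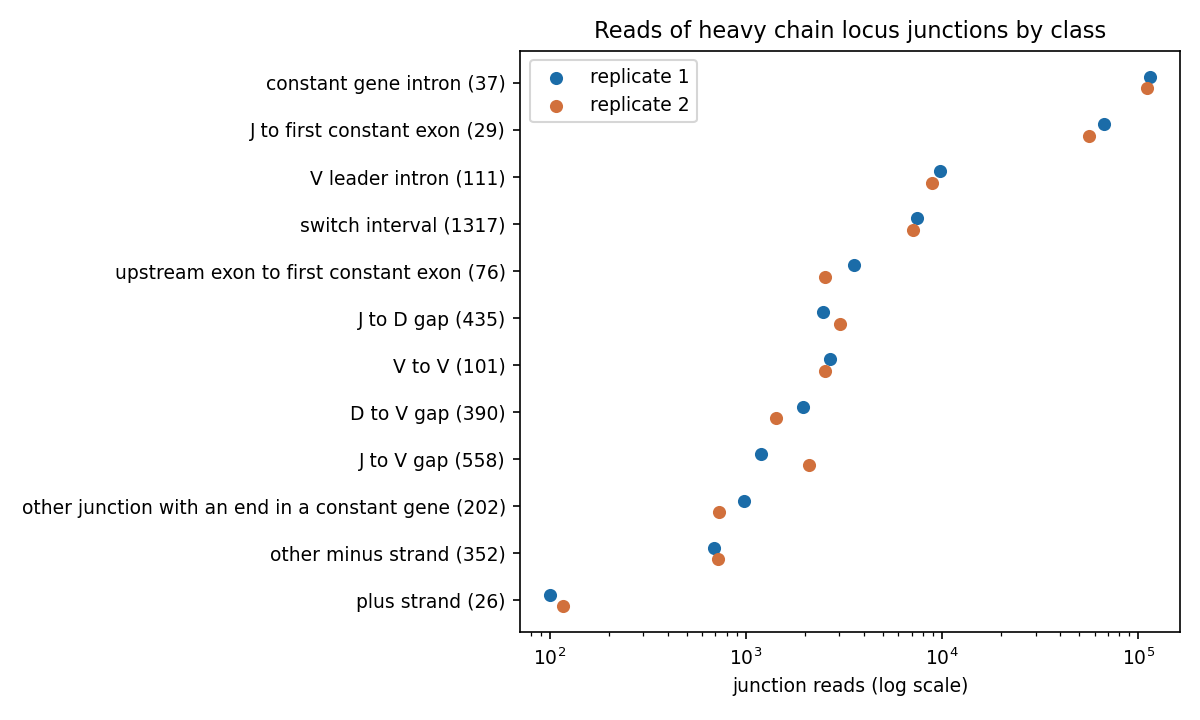
Junction reads by class on a log axis, with replicate 1 as blue points and replicate 2 as orange points, and the number of junctions of each class in brackets. Introns of constant genes and J to CH1 joints carry the most reads in few junctions, and the interval between Ighm and J4 (named switch interval) has the most junctions, 1317.

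The locus differed in make-up from the rest of the list at the same read limit. Long junctions made up 50.2% of the locus (95% exact binomial interval for counting error 48.5 to 51.8%), 58.1% of the immunoglobulin kappa locus (764 junctions on chromosome 6 between 67.5 and 70.7 Mb) and 15.5% of the rest of the list. Junctions whose ends lacked a splice motif, by the flag of the list as read here, were 58.4% of the locus, 49.5% of the kappa locus and 20.7% of the rest. They held 4.32% of the reads of the locus, 3.89% in the kappa locus and 1.31% in the rest. Junctions flagged as annotated were 72 of 3634, 1.98%, against 57.4% in the rest of the list, and held 44.4% of the reads, against 88.1%. A further 81 junctions of the locus lay at introns of the GENCODE M21 annotation by their layout but lacked the flag. Among them were both membrane introns of Ighm, with 12112 and 12764 reads over both replicates. The flag therefore misses known introns of the locus. These are shares within 1 list, in which junctions of the same transcript share reads, and carry no test.

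All 5 introns of Ighm were read deeply and alike in both replicates. The CH2 to CH3 intron, chr12:114659898-114660176, had 39473 reads in replicate 1 and 42990 in replicate 2, the most of any junction in the locus. CH3 to CH4 had 17886 and 17592 reads, and CH1 to CH2 had 16120 and 15119. Introns of the same messenger thus differed 2.64-fold in reads within Ighm, so read numbers of different introns are not levels. The membrane joint from CH4 to M1, chr12:114657280-114659139, had 5572 and 6540 reads, and M1 to M2 had 6493 and 6271. Set against the mean of the 3 domain introns, the membrane joint was 22.7% in replicate 1 and 25.9% in replicate 2. Against the CH3 to CH4 intron alone it was 31.2% and 37.2%, so the percent depends on the intron used. In the transcript tables, which the choice of junctions did not use, membrane transcripts were 24.0% and 27.8% of Ighm TPM (25.9% ± 2.67, SD, n = 2), from 1377 and 1349 TPM of the membrane form and 4354 and 3504 TPM of the secreted form.

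Ighd was spliced almost wholly to its membrane exons. The joint from CH3 to M1, chr12:114646133-114652482, had 2495 reads in replicate 1 and 2897 in replicate 2, while the joint from the same CH3 end to the secreted exon, chr12:114647857-114652482, had 46 and 40. The membrane exons themselves were joined by 2635 and 2877 reads, with a further 199 and 178 reads to an acceptor just upstream of M2 that the annotation lacks. The domain introns of Ighd were read less than its membrane joint, with 1186 and 1101 reads from the hinge to CH3 and 111 and 162 from CH1 to the hinge. The membrane form was 99.5% and 99.2% of Ighd TPM.

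In the other classes the joint into the membrane exons had few reads beside the mean domain intron. For Igha the CH2 to CH3 intron had 3507 reads in replicate 1 and 6066 in replicate 2, and CH1 to CH2 had 2202 and 4037. The Igha membrane joint had 26 and 48 reads, which was 0.911% and 0.95% of the mean domain intron. For Ighg2c the CH1 to hinge intron had 5603 and 1369 reads, and the membrane joint had 25 and 15, or 0.745% and 1.69% of the mean domain intron. The membrane joint of Ighg3 had 17 and 16 reads (2.34% and 4.11%), that of Ighg1 had 19 and 4 (4.24% and 3.06%), and that of Ighg2b had 11 and 1 (1.12% and 0.237%). These percents depend on the intron used, since the domain introns differed 13.1-fold within Ighg1 and 6.06-fold within Ighg3. Over both replicates, the membrane joint was 22.3% of the last domain intron for Ighg1 and 10.9% for Ighg3. Joints between membrane exons had more reads than the joint into them for Ighg3 (71 and 80 reads), Ighg1 (26 and 2), Ighg2b (36 and 29) and Ighg2c (91 and 18), except for Ighg1 in replicate 2. Ighe had 13, 3 and 12 reads in its domain introns in replicate 1 and 0, 2 and 0 in replicate 2, and its joint into the membrane exons was not among the listed junctions of the locus. The joint between the membrane exons of Ighe, M1 to M2, had 0 and 3 reads. By TPM the membrane share was 0.429% ± 0.0484 for Igha, 1.47% ± 0.864 for Ighg2c, 1.23% ± 0.560 for Ighg2b and 2.10% ± 1.17 for Ighg1 (SD, n = 2). No such share is given for Ighg3 and Ighe.

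**Figure D2:**
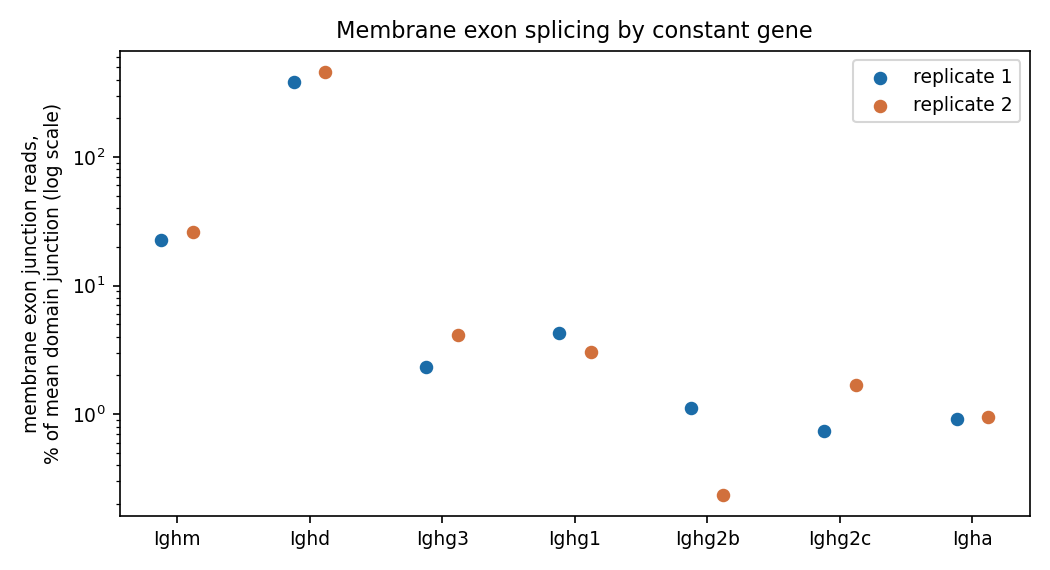
Reads of the joint into the membrane exons as a percent of the mean domain intron of the gene, on a log axis, for replicate 1 (blue) and replicate 2 (orange), with no error bars. Ighd lies above 100%, Ighm between 22.7% and 25.9%, and the IgG and IgA genes below 5%. Ighe, with 0 reads at the joint into its membrane exons, is not drawn.

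The J segments were joined to CH1 of every constant gene, by 29 junctions with 67228 reads in replicate 1 and 56298 in replicate 2. None carried the annotated flag. Ighm took 52539 and 44060 of these reads, 78.2% and 78.3%. Igha took 3513 and 7894 reads, 5.23% and 14%, and the 4 IgG genes together 10520 and 3521 reads, 15.6% and 6.25%. The classes other than IgM and IgD summed to 20.9% in replicate 1 and 20.3% in replicate 2, so the total was alike while the classes within it were not. Ighd took 655 and 819 reads, 0.974% and 1.45%, and Ighe 1 and 4. Over both replicates the joint numbers with their 95% Poisson intervals were 96599 (95991 to 97210) for Ighm, 11407 (11199 to 11618) for Igha, 9743 (9550 to 9938) for Ighg2c, 2495 (2398 to 2595) for Ighg2b, 1474 (1400 to 1551) for Ighd, 1077 (1014 to 1143) for Ighg3, 726 (674 to 781) for Ighg1 and 5 (1.62 to 11.7) for Ighe. Poisson and binomial intervals here cover counting error only, since without molecular identifiers several reads can stem from 1 molecule.

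The joint of J4 to Ighg2c, chr12:114527144-114666724, spanned 139581 bases and had 4542 reads in replicate 1 and 228 in replicate 2. It was the strongest long junction of the locus and 19.9-fold higher in replicate 1 (95% counting interval 17.4 to 22.8). J4 made up 59.5% of the Ighg2c joints in replicate 1 and 10.8% in replicate 2. The joints of J1, J2 and J3 to the same exon were 1.69-fold, 1.73-fold and 1.53-fold higher in replicate 1, so the replicates differed most at 1 J segment. J4 to Ighg2b had 848 and 157 reads, or 50.1% and 19.6% of the Ighg2b joints, and J2 to Ighg1 had 256 and 31, or 45.2% and 19.4%. All 4 joints to Igha were lower in replicate 1, between 0.363-fold and 0.560-fold. The joints to Ighm differed little in make-up: J1 held 27.5% and 22.8%, J2 30.7% and 34.8%, J3 19.0% and 21.8%, and J4 22.8% and 20.6%. Among the 6 classes with more than 100 joint reads besides IgM, J2 was the most read segment in both replicates only for Ighd (36.6% and 39.8%) and Igha (31.0% and 38.0%).

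**Figure D3:**
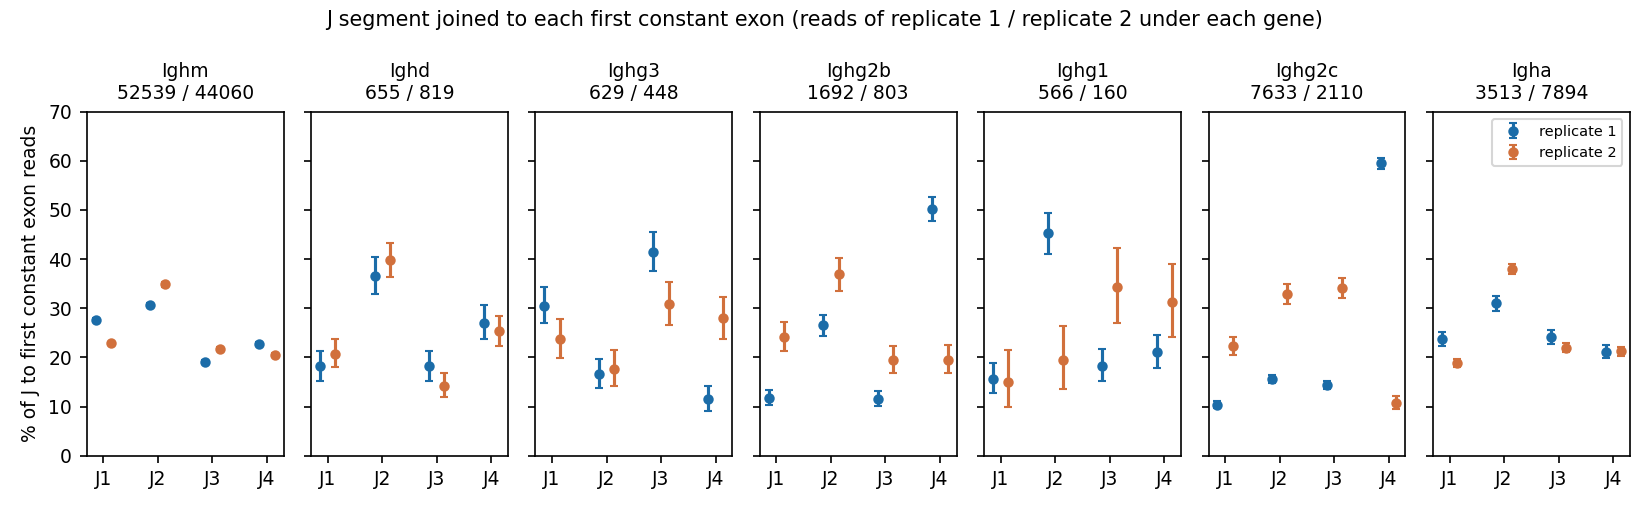
Share of each J segment among the J to CH1 reads of 7 constant genes, as percent with 95% exact binomial intervals, for replicate 1 (blue) and replicate 2 (orange). The replicates lie close together for Ighm and apart for Ighg2c, where J4 holds 59.5% in replicate 1 and 10.8% in replicate 2.

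Between replicates, reads were scaled by the median ratio over all junctions of 100 or more reads, which was 1.00. Of the 94478 junctions of the list with 20 or more reads, 5.59% were more than 2-fold higher in replicate 1 and 7.42% more than 2-fold lower. Of the 441 heavy chain junctions with 20 or more reads, 52 (11.8%) were higher and 73 (16.6%) lower by that limit. Which direction held more junctions depends on the scaling. Scaled by the total of all junction reads instead, which raises every log2 ratio by 0.22, 70 of the 441 were higher and 54 lower, against 9.37% higher and 4.54% lower in the whole list. Introns of constant genes were higher in 11 of 32 and lower in none, and the domain introns of Ighg2c (10064 and 2660 reads in sum), Ighg1 (1343 and 392), Ighg2b (2935 and 1267) and Ighg3 (2177 and 1168) were 3.78-fold, 3.42-fold, 2.31-fold and 1.86-fold higher in replicate 1. Those of Ighm (73479 and 75701) and Ighd (1297 and 1263) were 0.970-fold and 1.03-fold, and those of Igha (5709 and 10103) 0.565-fold. By total scaling Ighm turned to 1.13-fold and Igha stood at 0.658-fold, while the 4 IgG genes lay between 2.17-fold and 4.41-fold. The gene tables, counted apart from the same samples, gave ratios of 4.16 for Ighg2c, 3.76 for Ighg1, 2.42 for Ighg2b and 2.14 for Ighg3. For Ighm, Ighd and Igha the ratios were 1.07, 0.937 and 0.623. R1 and R2 were taken as replicates 1 and 2 because these ratios ran together with those of the junctions. Their shared direction is therefore no separate check. Of 74 V leader introns, 20 were lower in replicate 1 and 4 higher, and of 19 gaps between J and V, 11 were lower and 2 higher. Of 41 gaps between J and D, 17 were lower and 7 higher, and of 14 gaps between D and V, 2 were lower and 8 higher. By total scaling more were still lower than higher among V leader introns (14 and 7), gaps between J and V (11 and 2) and gaps between J and D (15 and 7), and more higher than lower among gaps between D and V (8 and 0). By TPM the 5 plasma cell markers differed less than the 4 IgG genes. Xbp1 was lower in replicate 1, at 57.4 and 68.0 TPM, and the others were higher. Jchain read 388 and 345 TPM, Mzb1 137 and 96.5, Sdc1 12.5 and 11.1, and Prdm1 2.44 and 1.79. The part of plasma cells in the differences between replicates was not tested.

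**Figure D4:**
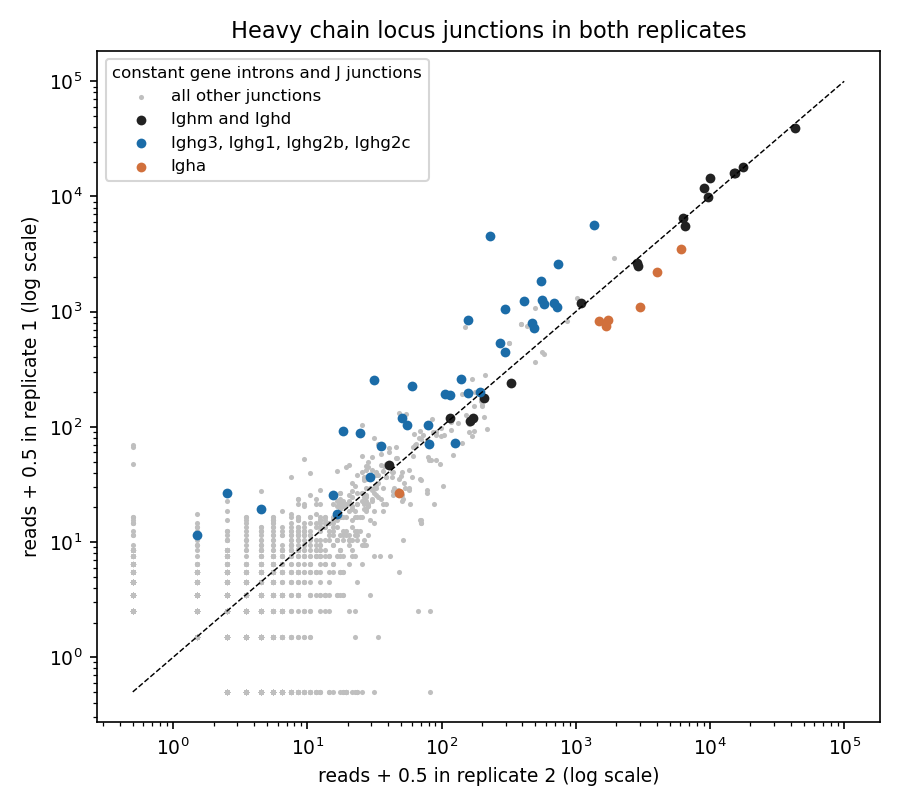
Reads + 0.5 of each junction of the locus in replicate 1 (vertical) and replicate 2 (horizontal) on log axes, with the line of equal reads dashed. Constant gene introns and J joints of Ighm and Ighd (black) lie along the line, those of the IgG genes (blue) mostly above it and those of Igha (orange) below it, with all other junctions in grey.

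A splice donor that the annotation lacks, 3924 bases upstream of the Ighm CH1 exon at the upper end of the junction chr12:114660942-114664865, was joined to Ighm CH1 by 2922 reads in replicate 1 and 1927 in replicate 2. It lies between J4 and the Ighm gene. Germline transcripts that begin at an exon in this stretch and splice to CH1 are known for the mouse, and skip the switch region. The same donor was joined to CH1 of 6 further genes: to Ighd with 108 and 131 reads, to Ighg2c with 22 and 2, to Igha with 3 and 17, to Ighg2b with 5 and 5, to Ighg3 with 9 and 1, and to Ighg1 with 1 and 1. Its 7 junctions had 3070 and 2084 reads in sum. Weaker upstream ends close to single IgG genes were joined to Ighg3 from 4679 bases upstream (19 and 21 reads), to Ighg2b from 6456 bases (9 and 15) and to Ighg2c from 6932 bases (8 and 2). The leader exons of 4 V genes were joined straight to CH1 of Ighg2c without V, D or J, with 25 reads for Ighv2-2, 8 for Ighv2-4, 5 for Ighv2-3 and 5 for Ighv2-5, each of them with 0 reads in replicate 1. The leader of Ighv2-2 was also joined to CH1 of Ighg2b, with 0 and 2 reads. All 4 genes are of the Ighv2 family, in which other junctions also joined the leader of 1 gene to the V exon of another. Whether reads of 1 transcript were placed at several of these genes was not tested.

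Some joints left out whole constant exons. The 4 J segments were joined directly to the M1 exon of Ighm by 31 reads in replicate 1 and 32 in replicate 2, of which J2 held 16 and 15. A donor downstream of the M1 to M2 intron of Ighm was joined to CH1 of Ighd, chr12:114654536-114656959, by 7 and 18 reads, and the CH4 end of Ighm to the same exon by 11 and 6. The CH1 end of Ighg1 was joined to the hinge of Ighg2c, chr12:114526537-114568443, by 104 and 25 reads. The Ighg2c intron with the same hinge end had 5603 and 1369 reads. CH1 of Ighg2c was joined to its own CH2 without the hinge by 12 and 8 reads. In all, 16 junctions linked a pair of constant genes, with 160 and 53 reads, and 8 of the 16 had a splice motif. Whether reads of 1 constant gene were placed at a related one was not tested.

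The stretch between the CH1 exon of Ighm and J4 held 1317 junctions, 36.2% of all in the locus, with 7428 reads in replicate 1 and 7103 in replicate 2. The switch region of Ighm lies here, and in the mouse it is built of tandem repeats of a 5-base unit. Spans were short, with a median of 295 bases and a range of 31 to 3917. Of the 1317 spans, 1161 (88.2%) were multiples of 5, against 49094 of 245555 junctions (19.99%) in the rest of the list and 16.4% of 475 other short minus-strand junctions of the locus. Among the 991 with a splice motif the share was 97.6%, and among the 326 without one it was 59.5%. The strongest, chr12:114662801-114663205, spanned 405 bases with 117 and 85 reads, and chr12:114662656-114662805 spanned 150 bases with 98 and 99 reads. The ends recurred, with 324 different lower ends and 163 different upper ends in the 1317 junctions. Both replicates held reads at 75.3% of them, against 53.1% of all junctions of the locus. No mm9 genome sequence was used, so the repeats themselves are not printed. Whether reads of these junctions were placed among several repeats was not tested.

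**Figure D5:**
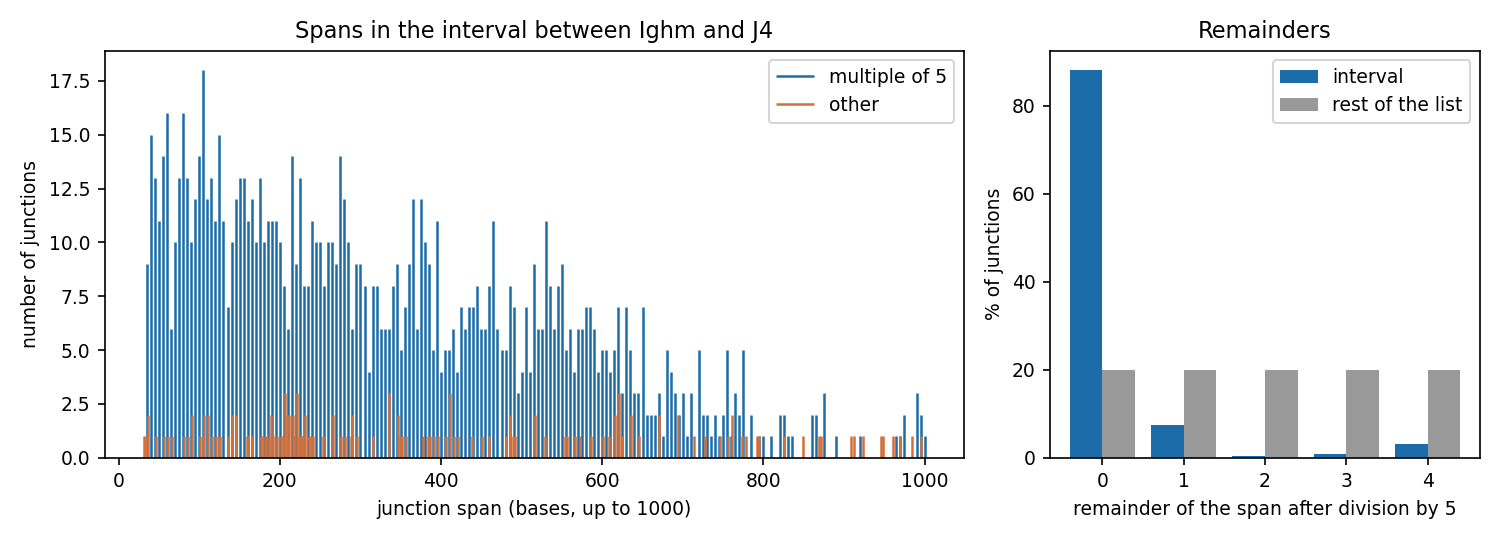
Left, number of junctions at each span along the axis (longer spans are not drawn) in the interval between Ighm CH1 and J4, with multiples of 5 in blue and other spans in orange. Right, percent of junctions by the remainder of the span after division by 5, for the interval (blue, 88.2% at 0) and the rest of the list (grey, 19.99% at 0).

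A further 66 long junctions ran from this interval to places in or beyond the constant region outside its exons, with 228 reads in replicate 1 and 244 in replicate 2. The strongest, chr12:114502636-114662615, spanned 159980 bases and had 40 and 42 reads. The next, chr12:114513476-114662722 and chr12:114514086-114662945, had 24 and 33 reads and 22 and 27 reads. The lower end of the first lies between Ighe and the CH1 exon of Igha, and those of the next 2 lie upstream of the CH1 exon of Ighe. Switch regions are known to lie upstream of CH1 in both genes. The J to CH1 joints had 1 and 4 reads for Ighe and 3513 and 7894 for Igha. Whether the long junctions stem from class switching was not tested, nor whether reads were placed among related repeats.

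Gaps between V, D and J segments made up most of the long junctions, with 558 of the J to V, 390 of the D to V and 383 of the J to D gaps among the 1823. Counting the shorter ones too, J to D gaps numbered 435 with 2486 reads in replicate 1 and 3010 in replicate 2, D to V gaps 390 with 1949 and 1430, and J to V gaps 558 with 1199 and 2107. Of these 1383 gaps, 1369 (99.0%) lacked a splice motif, and 453 (32.8%) had reads in both replicates. The J to D gaps ended at 15 D segments, and Ighd1-1 held 2087 of the reads in replicate 1 and 2292 in replicate 2, 84.0% and 76.1%. In D to V gaps it held 89.2% and 88.4%. Ighd1-1 is 23 bases long. Whether the length of a D segment moved its share was not tested. J1 held 46.7% and 43.2% of the J to D gap reads, against 24.8% and 22.2% of the J to CH1 reads. V genes in gaps led with Ighv7-1, at 1080 and 807 reads over D to V and J to V gaps. No gap was longer than 891456 bases, and none ended at a gene of the Ighv1, Ighv6, Ighv8, Ighv9, Ighv10 or Ighv12 families. Those families had 56, 2, 9, 4, 2 and 1 leader introns with reads, so the ranking by gaps does not give V gene use. The 4 leader introns of Ighv9, with 386 reads, lie nearer to J than Ighv5-21, where the longest gap ended. Whether the list limits the span of a gap was not tested.

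The strongest gaps on both sides of Ighd1-1 fit together with Ighj1 and Ighv7-1. The J1 to Ighd1-1 gap, chr12:114668041-114720380, had 821 reads in replicate 1 and 859 in replicate 2. The Ighd1-1 to Ighv7-1 gap, chr12:114720399-115134621, spanned 414223 bases and had 744 and 436 reads. The next D to V gap, from Ighd1-1 to Ighv2-6, had 28 and 57. In the sequences, capitals mark the bases left outside the gaps.
Ighv7-1 3 prime end: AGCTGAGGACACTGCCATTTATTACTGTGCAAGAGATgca
Ighd1-1 at its strongest gaps: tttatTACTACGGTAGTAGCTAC
Ighj1 at its strongest gap: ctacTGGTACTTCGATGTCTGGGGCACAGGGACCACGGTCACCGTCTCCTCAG
Set in a row, with the Ighd1-1 bases in capitals, the kept reference bases read as follows.
Ighv7-1, Ighd1-1 and Ighj1 joined: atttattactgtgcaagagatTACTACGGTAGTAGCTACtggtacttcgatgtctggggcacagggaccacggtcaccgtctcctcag
The gaps held 4 bases of Ighj1, 5 of Ighd1-1 and 3 of Ighv7-1. The 4 lost bases of Ighj1 are the same letters as the last 4 of Ighd1-1, so the same read can be placed with the gap at several positions. The list does not show whether the same reads crossed both gaps. In the mouse, this trio of segments is known as the heavy chain of the T15 antibodies against phosphorylcholine. Ighv7-1 read 27.6 and 18.1 TPM in the gene tables, and its leader intron had 23 and 30 reads.

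Some gaps were confined to a replicate. Ighd2-8 to Ighv5-17, chr12:114689079-115097364, had 69 reads in replicate 1 and 0 in replicate 2, and J1 to Ighv2-6, chr12:114668045-114954871, had 67 and 0. J4 to Ighv5-17, chr12:114666772-115097357, had 0 and 82 reads, and J3 to Ighv2-2, chr12:114667348-114826476, had 0 and 31. Among the junctions found in 1 replicate the most reads were 82. The longest junctions of the locus ran to Ighv5-21: from J4 over 891456 bases with 0 and 2 reads, from J4 over 891453 bases with 0 and 3, and from J2 over 890508 bases at a pair of positions, with 0 and 19 reads and with 2 and 0.

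V leader introns, which separate the signal peptide exon from the V exon, numbered 111 with 9715 reads in replicate 1 and 8898 in replicate 2. Their spans ran from 76 to 176 bases with a median of 83. The strongest were Ighv2-2 (1303 and 1023 reads), Ighv2-3 (1069 and 497), Ighv2-9 (762 and 449), Ighv2-9-1 (776 and 391) and Ighv2-5 (431 and 575), all of the Ighv2 family. That family held 55.7% and 37.4% of the leader reads in 9 introns, and the Ighv1 family 20.6% and 32.1% in 56 introns. Ighv2-6 had 742 and 149 reads, 4.98-fold higher in replicate 1 (counting interval 4.17 to 5.97), and Ighv8-4 had 2 and 82. Leader reads and gene levels ranked alike only in part. As examples that departed, Ighv1-72 had 128 and 54 leader reads at 336 and 77.2 TPM, while Ighv2-4 had 259 and 169 at 7.13 and 3.10 TPM. Across the 108 leader introns whose gene has a row in the gene tables, Spearman's rho between leader reads and summed TPM was 0.726, over genes that share a library and reads among relatives.

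Another 101 junctions joined the leader of 1 V gene to the V exon of another, always of the same V family, with 2688 reads in replicate 1 and 2528 in replicate 2. In 11 of the 48 with 10 or more reads, both replicates matched the V exon's own leader intron to within 1 read. Ighv2-9-1 joined to the Ighv2-6-8 leader had 776 and 391 reads, the same as its own leader. Ighv8-12 to the Ighv8-14 leader had 535 and 319, against 535 and 320 for its own, and Ighv1-53 to the Ighv1-62 leader had 152 and 200, against 153 and 200. The leader exons of each pair are shown because the 46 leader bases compared are the same in all 3 pairs, while 17, 19 and 20 of the first 20 bases of the V exon are. The V exon start is in capitals.
Ighv2-9-1 leader: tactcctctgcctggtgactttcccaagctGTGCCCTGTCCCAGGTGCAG
Ighv2-6-8 leader: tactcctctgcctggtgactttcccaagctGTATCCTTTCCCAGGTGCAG
Ighv8-12 leader: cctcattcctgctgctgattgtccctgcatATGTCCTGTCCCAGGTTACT
Ighv8-14 leader: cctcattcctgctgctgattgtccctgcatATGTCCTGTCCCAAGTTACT
Ighv1-53 leader: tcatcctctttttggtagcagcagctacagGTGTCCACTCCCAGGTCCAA
Ighv1-62 leader: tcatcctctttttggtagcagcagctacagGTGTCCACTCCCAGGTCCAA
No source used here states how the list counted reads that fit several places.

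The 26 plus-strand junctions had 101 reads in replicate 1 and 117 in replicate 2. Of them, 6 belonged to Zfp386 (128 reads in sum) at the upper edge of the window, and Tedc1 and Tmem121, at its lower edge, had 1 each with 20 reads. No plus-strand junction inside the immunoglobulin segments had more than 5 reads.

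Of the genes known to act on the locus, the recombinase genes Rag1 (0.11 and 0.06 TPM) and Rag2 (0.01 and 0.01 TPM) and Dntt (0.62 and 0.37 TPM), which adds bases at V, D and J ends, were below 1 TPM in both replicates. Of the genes of switching and mutation, Ung, which removes uracil from DNA, read 7.67 and 5.0 TPM, and Trp53bp1, which acts in the joining of DNA breaks, 19.3 and 15.3 TPM. Among 8 genes of RNA processing, Zfp318, needed in the mouse for IgD, read 49.3 and 33.3 TPM, and Ell2, which favours the secreted form, 4.91 and 4.30 TPM. Jchain, which links IgM and IgA into polymers, read 388 and 345 TPM. The receptor partners Cd79a and Cd79b read 1130 and 863 TPM and 530 and 499 TPM. Ighm itself read 5731 and 4853 TPM, Igha 526 and 764, Ighg2c 849 and 184, Ighd 351 and 342, Ighg2b 229 and 85.0, Ighg3 128 and 53.8, Ighg1 93.3 and 21.9, and Ighe 1.12 and 0.16. On this scale, which divides by length, Ighm was the highest constant gene in both replicates and Ighe the lowest, while Ighg2c stood second in replicate 1 and below Igha and Ighd in replicate 2.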

How the data were processed

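Spleen RNA of 2 biological replicates was analysed from 1 splice junction list on mm9 and from gene and transcript tables on mm10 with GENCODE annotation M4, per the submitters' processing notes. The aligner, junction caller and counting tool are not named in the sources used. In the deposited junction list, reads per junction are a whole-number count, and the row names give a count for R1 and for R2. The notes do not define R1 and R2, which were taken as biological replicates 1 and 2, since junction and gene table ratios of the constant genes ran together. The field A was read as a flag for annotated and C for a splice motif, which the notes do not define either. The deposited list also holds an irreproducibility value, treated as a p-value-like number and used as an alternative, a display score that was not used further, and a further whole number of unstated meaning. The deposited tables hold expected counts, TPM and FPKM made by the authors from transcriptome alignments of 1 replicate each.

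Junctions were matched to segments by the exon and intron lengths of the GENCODE M21 annotation and their distances from the Ighm CH2 to CH3 intron, of 279 bases, so no coordinate was converted. Gap ends lay within 10 bases of a segment. All constant genes were named, with a selection of the listed pathway genes, of which 1 is not reported here. In other classes the rule was the 10 junctions of most reads and the longest ones, and further examples were chosen after their values were seen. The members and gene lists were chosen with earlier results of these data known. A fold between replicates was computed for junctions of 20 or more reads after scaling by the median ratio, or by total junction reads as an alternative, with no test across conditions because there is 1 group. Intervals are exact binomial or Poisson at 95%. No column of other samples was found (0). Scripts ran in Python 3.11.15 with pandas 2.3.3, numpy 2.4.6, scipy 1.17.1 and matplotlib 3.10.9, and were tested on simulated data.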

Additional observations from a re-analysis of the deposited data

How the results depend on the processing

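The number of junctions follows the read limit. At 1, 3, 5 and 10 or more reads the locus held 7023, 2419, 1436 and 773 junctions, and 1142 at an irreproducibility value of at most 0.1. In that order of settings, long minus-strand junctions numbered 3690, 1115, 571, 276 and 366, and long plus-strand ones 24, 4, 0, 0 and 0. Other short junctions on the plus strand numbered 39, 9, 8, 6 and 6. At 1, 5 and 10 reads and at that irreproducibility value, the constant region held 316, 81, 58 and 66 on the minus strand and 5, 0, 0 and 0 on the plus strand, and other short junctions on the minus strand numbered 2949, 776, 433 and 704. With a limit of 2 on the further whole number of the list, chosen after seeing the data, long junctions numbered 1149 on the minus and 3 on the plus strand, and constant region plus-strand ones 0. Leaving out a replicate gave 2212 to 2313 in all, 119 to 126 and 1 to 2 in the constant region (minus and plus), 972 to 1109 and 2 to 4 long, and 1068 to 1100 and 10 to 12 other short. The share of reads in long minus-strand junctions was 11.6% at 1 read and 10.3% at 10, in long plus-strand ones 0.00872% and 0%, on the plus strand in all 0.0630% and 0.0411%, and in constant region plus-strand ones 0% at 10 reads. The membrane joint over the last domain intron alone, as a ratio, was 0.341 for Ighm, 2.36 for Ighd, 0.109 for Ighg3, 0.223 for Ighg1, 0.0149 for Ighg2b, 0.0167 for Ighg2c and 0.00773 for Igha. Against the mean domain intron, leaving out a replicate gave 0.0306 to 0.0424 for Ighg1 and 0.00745 to 0.0169 for Ighg2c. Gaps between J and V numbered 364 when ends had to lie within 5 bases of a segment. Of 290 values recomputed, 154 stayed within their limit, 136 moved and 0 reversed; fewer or more junctions follow from the limits themselves, and the other causes were not tested. Junctions of few reads are the least certain. No paired analysis was possible because the samples form 1 group.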
